A study of Mus musculus with 6 samples.

Results

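The expression of 9 mouse genes that digest dietary sugars at the intestinal brush border, carry the products across the enterocyte or start the breakdown of fructose was followed in duodenal epithelium with and without the nuclear receptor ESRRA. The genes were taken by symbol: the disaccharidases Sis, Mgam, Lct and Treh, the sugar transporters Slc5a1, Slc2a2, Slc2a5 and Slc2a1, and the fructose kinase Khk. All 9 were found among the 22611 genes of the expression table, and all 9 passed the filter of a mean above 1 FPKM (a fragment count scaled to transcript length and to library size) that left 10596 genes for testing.

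Epithelium was released with EDTA from the proximal small intestine (duodenum) of WT and Esrra-/- mice (label ESRRAKO), and 3 replicate libraries of each genotype were sequenced. Each library is taken here as 1 mouse, but the labels do not name the animals, so p-values measure the spread between these libraries. According to the study's methods, the Esrra-/- mice carry a germline null allele, so Esrra is lost in every tissue and not in the intestine alone, and the controls were littermates. Both genotypes had been on a high-fat diet (HFD) for approximately 8 weeks, and the age and strain of these mice are not given in the sources used here. The colony also carried a floxed Esrra allele and the tamoxifen-inducible Villin-CreERT2 transgene, which is active in intestinal epithelium, and whether the sequenced mice carried either is not stated.

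Starch and sucrose are cut to single sugars only at the tip of the enterocyte, by large enzymes anchored in the microvillus membrane. Glucose and galactose then enter with sodium through SGLT1, the product of Slc5a1, fructose enters through GLUT5, the product of Slc2a5, and both leave through GLUT2, the product of Slc2a2, on the basolateral side. Inside the cell, ketohexokinase, the product of Khk, phosphorylates fructose and so traps it in the cell. These genes mark mature enterocytes of the villus, and the transcription factors CDX2, HNF1, HNF4A and GATA4 are well known for their part in switching them on.

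The sequences just upstream of 4 of the genes are shown for the following reasons. In the data that follow, Sis, Mgam and Slc2a2 were lowest in replicate 2 of both genotypes, as were Slc5a1, Slc2a5 and Khk, whereas Lct stayed nearly level. The only match to AAGGTCA, the core of the ESRRA site, among the 9 promoters lies in Slc2a2. Each sequence is the 250 bases that precede the RefSeq transcription start, printed 5′ to 3′ on the strand of the gene and located in mm9 by exact match. They lie at chr3:72771786-72772035 on the minus strand for Sis, chr6:40578580-40578829 on the plus strand for Mgam, chr3:28596575-28596824 on the plus strand for Slc2a2 and chr1:130224896-130225145 on the minus strand for Lct. Capitals mark every match to a searched motif.
Sis: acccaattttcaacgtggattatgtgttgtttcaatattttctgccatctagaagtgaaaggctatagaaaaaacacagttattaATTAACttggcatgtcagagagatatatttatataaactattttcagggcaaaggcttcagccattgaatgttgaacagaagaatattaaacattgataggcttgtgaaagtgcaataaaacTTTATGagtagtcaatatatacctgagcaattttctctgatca
Mgam: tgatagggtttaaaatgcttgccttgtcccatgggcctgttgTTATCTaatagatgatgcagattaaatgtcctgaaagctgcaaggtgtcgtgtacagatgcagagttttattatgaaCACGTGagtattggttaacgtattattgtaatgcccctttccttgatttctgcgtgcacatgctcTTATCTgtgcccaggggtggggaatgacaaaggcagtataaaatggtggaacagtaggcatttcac
Slc2a2: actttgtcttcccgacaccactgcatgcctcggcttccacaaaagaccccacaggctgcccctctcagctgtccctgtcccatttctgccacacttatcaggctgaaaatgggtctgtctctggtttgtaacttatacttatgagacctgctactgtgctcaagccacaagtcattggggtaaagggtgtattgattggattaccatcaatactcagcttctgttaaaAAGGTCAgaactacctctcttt
Lct: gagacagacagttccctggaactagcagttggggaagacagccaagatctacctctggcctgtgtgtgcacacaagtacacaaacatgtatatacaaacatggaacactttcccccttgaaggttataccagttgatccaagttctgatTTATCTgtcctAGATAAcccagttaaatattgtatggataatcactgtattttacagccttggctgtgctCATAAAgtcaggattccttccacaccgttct

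In Sis, the CDX2 motif TTTATG stood at -43 to -38 from the transcription start, and the HNF1 core GTTAAT was read on the opposite strand at -165 to -160. Lct carried the same CDX2 motif on the opposite strand at -31 to -26, and the GATA motif AGATAA at -101 to -96 on the opposite strand and at -90 to -85 on the strand of the gene. Mgam held GATA motifs on the opposite strand at -208 to -203 and -66 to -61, with the E-box CACGTG, a core of the sites of the sugar-sensing factor ChREBP, between them at -131 to -126. In Slc2a2 the ESRRA core AAGGTCA lay at -22 to -16. Of the other members, Khk held the E-box at -71 to -66 and the HNF1 core at -60 to -55, Slc5a1 the E-box at -143 to -138, and Treh the HNF4A motif CAAAGTCCA on the opposite strand at -71 to -63, while Slc2a5 and Slc2a1 held none of the 7 motifs.

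All of these are short words that occur by themselves in many promoters. On either strand, TTTATG was present in 10.8%, AGATAA in 9.99%, GTTAAT in 6.43%, CACGTG in 6.02%, AAGGTCA in 4.08% and CAAAGTCCA in 0.384% of the 32851 RefSeq mouse promoter windows of the same length. The longer ESRRA site TCAAGGTCA, which contains that core, was present in 0.387% of the windows and in none of the 9. The promoters also differed in base composition, from 31.6% G and C in Sis, through 42.4% in Mgam, 42.8% in Lct and 47.2% in Slc2a2, to 66.4% in Slc2a5 and 67.2% in Khk, against a median of 52.4% over all windows. A match is a description of the letters and does not show that a factor was bound.

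Esrra itself read 49.4, 73.5 and 104 FPKM in the WT libraries and 10.4, 9.42 and 8.72 FPKM in the Esrra-/- libraries, so every library stood on the side its label gives. The number of reads behind each library is not given by the table, which holds FPKM only. The FPKM of a library summed to between 707094 and 999902, and the 9 genes together made up 0.218% to 0.425% of that sum. Y-linked transcripts summed to between 27.3 and 46.7 FPKM in replicates 1 and 2 of both genotypes and to at most 0.222 FPKM in replicate 3 of both, so replicate 3 of each genotype lacked Y-linked transcripts. Villus enterocyte markers were abundant in every library, with a summed level of at least 50274 FPKM. Of the 9 acinar markers of the pancreas that were found, 6 were at 0 in every library, among them Amy2a5, Cela2a, Cpa1 and Pnlip. The acinar marker Cela1 was present at 2.31 to 3.56 FPKM, and Cpb1 and Ctrb1 reached at most 0.0609 and 0.265 FPKM. Of the markers of the duodenum, Gata4 was clearly present at 71.2 to 97.9 FPKM, Pdx1 stood at 0.145 to 1.31 FPKM and Cybrd1 at 0.411 to 0.899 FPKM, Slc40a1 at 0.340 to 2.46 FPKM and S100g at 3.91 to 60.4 FPKM, and the calcium channel Trpv6 was listed at 0 in all 6 libraries. Among markers of the ileum, Fabp6 did not pass 4.69 FPKM and Slc10a2 stood at 0.128 to 0.796 FPKM. Osta and Ostb, which encode the basolateral bile acid exporter, stood at 138 to 372 FPKM and 296 to 641 FPKM.

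The comparison asked whether transcript levels of genes for sugar digestion and fructose uptake differed between the genotypes, and none of the 9 was called. A gene was called when limma gave p under 0.05 before adjustment and the log2 fold change went beyond 0.58 on the log2(FPKM + 0.1) scale. By that rule 0 of 9 members were lower in Esrra-/- epithelium, against 3.28% of all genes tested (348 of 10596), and 0 of 9 were higher, against 1.35% (143 of 10596). At an unadjusted p under 0.05 with no limit on the fold, 0 of 9 members passed against 10.8% of all genes (1144), and at an adjusted p under 0.05, 0 of 9 passed against 0.0378% (4 genes). The WT and Esrra-/- libraries overlapped for every member, whereas they did not overlap for 17.6% of all genes tested. The log2 fold changes of the members ran from -0.31 for Mgam to 0.19 for Slc2a2, 5 positive and 4 negative, with a median of 0.04 beside 0.03 over all genes. In bulk epithelium, fewer cells of a type and less RNA per cell cannot be told apart.

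Sucrase-isomaltase, encoded by Sis at chr3:72692479-72771785, splits sucrose and the short branched products of starch, and was the most abundant of the 9 with a mean of 686 FPKM over the 6 libraries, rank 123 of all genes. Sis read 766, 459 and 707 FPKM in WT replicates 1, 2 and 3 and 695, 451 and 1036 FPKM in Esrra-/- replicates 1, 2 and 3. Replicate 2 was the lowest library of each genotype and the highest value was in Esrra-/- replicate 3. Sis averaged 644 ± 163 FPKM in WT mice and 728 ± 294 FPKM in Esrra-/- mice (SD, n = 3 each), and its log2 fold change was 0.13 with a standard error of 0.35 and a 95% interval from -0.68 to 0.94 (limma, adjusted p = 0.915). An exact two-sided permutation test on the same values gave p = 1, where 3 libraries against 3 cannot go below 0.1.

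Maltase-glucoamylase, encoded by Mgam at chr6:40578830-40719122, completes the digestion of starch to glucose beside sucrase-isomaltase. Its levels were 368, 191 and 267 FPKM in WT and 198, 118 and 421 FPKM in Esrra-/-, in replicate order. The Esrra-/- libraries held both the lowest and the highest value, and replicate 2 was again lowest in each genotype. Means were 275 ± 88.6 and 246 ± 157 FPKM (SD, n = 3 each), and the log2 fold change was -0.31 with a 95% interval from -1.39 to 0.77 (limma, adjusted p = 0.834; exact permutation p = 0.7). Without Esrra-/- replicate 3 the log2 fold change was -0.80 (limma, adjusted p = 0.591), and without Esrra-/- replicate 2 it was 0.12.

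Lactase, encoded by Lct at chr1:130181333-130224895, digests the sugar of milk and usually declines after weaning. Lct read 245, 263 and 314 FPKM in WT and 311, 261 and 299 FPKM in Esrra-/-. The 6 values lay within 1.28 times of each other, and the spread of Lct within the groups was larger than that of only 28.0% of the genes tested. With means of 274 ± 36.0 and 290 ± 26.1 FPKM (SD, n = 3 each), its log2 fold change of 0.09 had one of the narrowest intervals, from -0.31 to 0.49 (limma, adjusted p = 0.878; exact permutation p = 0.7).

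Trehalase, encoded by Treh at chr9:44481316-44494388, splits the sugar of fungi and insects. Its levels of 244, 262 and 373 FPKM in WT and 300, 257 and 338 FPKM in Esrra-/- were close to those of Lct. Replicate 3 was the highest of each genotype. The log2 fold change was 0.04 with an interval from -0.46 to 0.55 (limma, adjusted p = 0.958; exact permutation p = 0.9). Treh overlaps Phldb1 on the opposite strand, and whether the quantification used strand is not stated.

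The sodium-glucose transporter gene Slc5a1, at chr5:33446868-33505521, varied 5.47-fold between libraries, more than any other member. It read 539, 345 and 840 FPKM in WT and 419, 207 and 1134 FPKM in Esrra-/-, so that replicate 3 was the highest and replicate 2 the lowest in both genotypes. The means were nearly equal, 575 ± 250 FPKM in WT mice and 587 ± 485 FPKM in Esrra-/- mice (SD, n = 3 each). On the log2 scale the difference was -0.22 with a 95% interval from -1.66 to 1.21 (limma, adjusted p = 0.916; exact permutation p = 0.9), the mean of the logs being lower in Esrra-/- and the mean FPKM slightly higher. Pseudogenes, Gm15936 on the same strand and 5033423K11Rik on the other, overlap Slc5a1 in the annotation.

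GLUT2, encoded by Slc2a2 at chr3:28596825-28627278, lets glucose, galactose and fructose pass to the blood side. Slc2a2 stood at 112, 48.2 and 138 FPKM in WT and at 156, 38.4 and 183 FPKM in Esrra-/-. Replicate 2 of each genotype lay well below its other 2 libraries. The means of 99.1 ± 46.0 and 126 ± 76.9 FPKM (SD, n = 3 each) gave a log2 fold change of 0.19, with an interval from -1.31 to 1.69 (limma, adjusted p = 0.933; exact permutation p = 0.7). Leaving out Esrra-/- replicate 2 moved the log2 fold change to 0.90 (limma, adjusted p = 0.454), and leaving out WT replicate 2 moved it to -0.26.

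The fructose transporter GLUT5, encoded by Slc2a5 at chr4:149493392-149518278, showed the same low replicate 2. Slc2a5 was at 156, 43.5 and 127 FPKM in WT and at 116, 36.7 and 153 FPKM in Esrra-/-. Its log2 fold change was -0.13 with an interval from -1.63 to 1.36 (limma, adjusted p = 0.954; exact permutation p = 0.7), with means of 109 ± 58.4 and 102 ± 59.3 FPKM (SD, n = 3 each). The standard deviations of Slc5a1, Slc2a2 and Slc2a5 within the groups were larger than those of 97.3%, 97.6% and 97.5% of the genes tested.

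GLUT1, encoded by Slc2a1 at chr4:118781316-118809935, is the common glucose transporter of dividing cells and red blood cells rather than of the villus. Slc2a1 was low and even, at 4.73, 4.10 and 3.92 FPKM in WT and 4.53, 5.14 and 4.72 FPKM in Esrra-/-. It was the only member that was highest in replicate 2 of a genotype, the Esrra-/- one. With means of 4.25 ± 0.427 and 4.80 ± 0.309 FPKM (SD, n = 3 each), it had the smallest adjusted p of the 9, at a log2 fold change of 0.17 and an interval from -0.15 to 0.49 (limma, adjusted p = 0.679; exact permutation p = 0.3).

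Ketohexokinase, encoded by Khk at chr5:31223929-31233619, commits fructose to metabolism in the enterocyte. Khk read 226, 187 and 306 FPKM in WT and 220, 170 and 266 FPKM in Esrra-/-. Both genotypes ran in the same order, lowest in replicate 2 and highest in replicate 3. The means were 240 ± 60.8 and 219 ± 48.1 FPKM (SD, n = 3 each), and the log2 fold change was -0.13 with an interval from -0.71 to 0.45 (limma, adjusted p = 0.876; exact permutation p = 0.7).

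**Figure D1:**
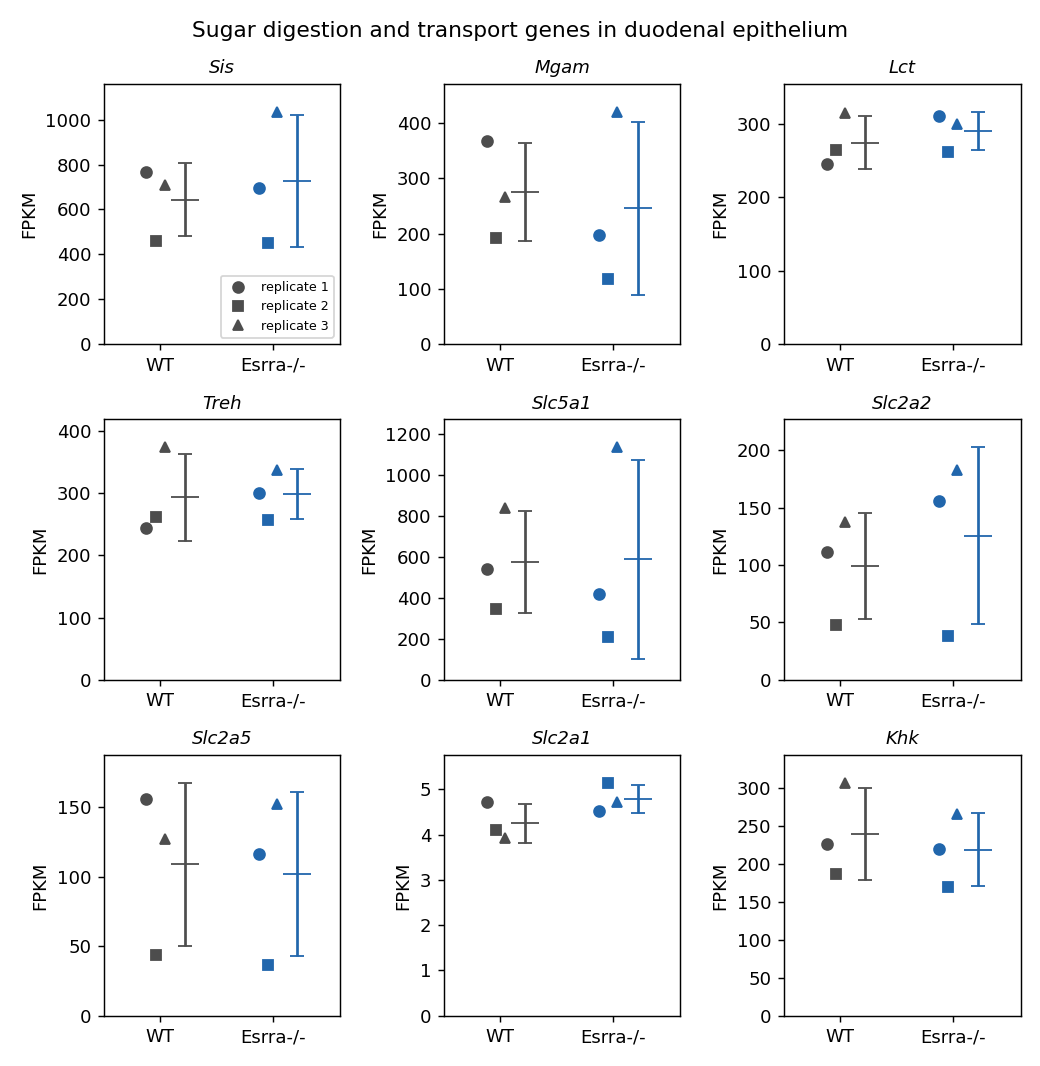
FPKM of the 9 genes in each library (y axes start at 0 and differ between panels), with WT in grey and Esrra-/- in blue, marker shapes for the replicate number, and horizontal bars with whiskers for the mean ± SD of 3 libraries. The genotypes overlap in every panel, and squares (replicate 2) lie lowest in both genotypes for 6 of the 9 genes.

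The intervals set what a comparison of 3 with 3 mice could show for each gene. For Lct, Treh and Slc2a1 the 95% interval of the log2 fold change lay inside the limits of -0.58 and 0.58 used for a call. For Sis, Mgam, Slc5a1, Slc2a2, Slc2a5 and Khk it reached past at least 1 of these limits. A change of that size was thus not excluded for these genes by the main fit, which has no block. With the replicate number as a block, the intervals of these genes were narrower. They lay inside the limits for Sis (-0.28 to 0.54), Slc2a5 (-0.53 to 0.26) and Khk (-0.35 to 0.096). They reached past 1 limit for Mgam (-1.13 to 0.51), Slc5a1 (-0.82 to 0.38) and Slc2a2 (-0.28 to 0.66). Whether a replicate number marks a shared litter or day is not stated. In the main fit, the interval of the fold was widest for Slc2a2, from 0.403 to 3.23 times the WT level. It was narrowest for Slc2a1, from 0.904 to 1.41 times.

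**Figure D2:**
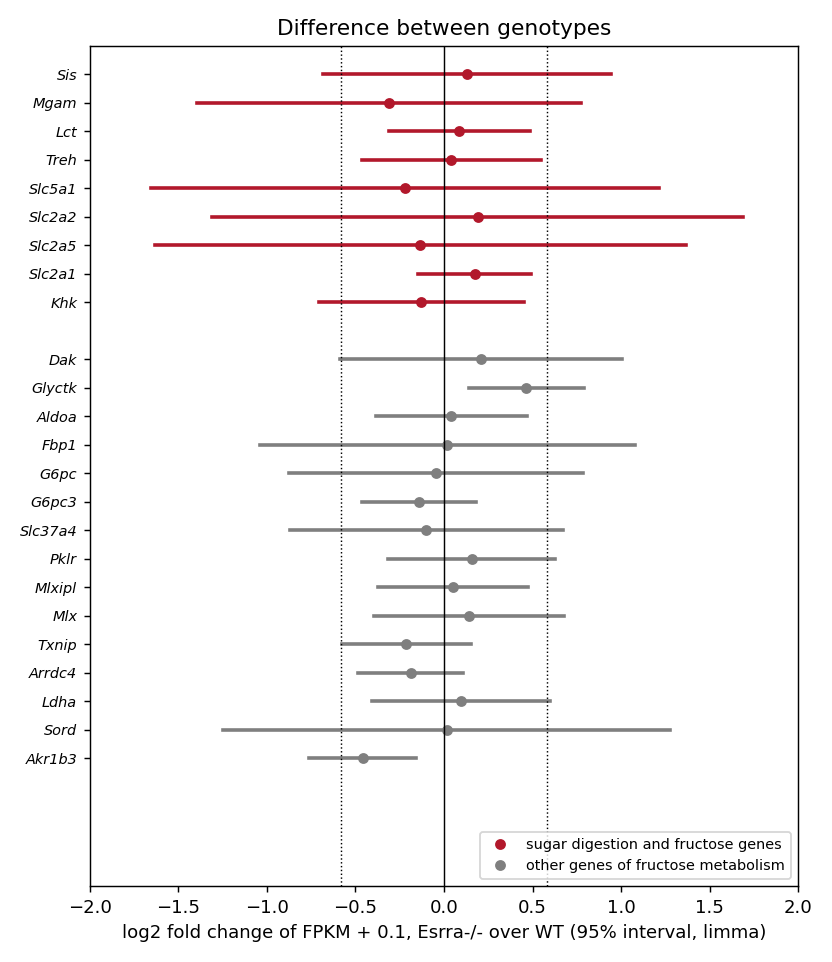
Log2 fold changes of FPKM + 0.1 in Esrra-/- over WT (x axis) for the 9 genes (red) and for 15 other genes of fructose metabolism and its response (grey), with 95% intervals from limma and dotted lines at -0.58 and 0.58. The intervals of all 9 genes cross 0, and among the grey genes those of Glyctk and Akr1b3 do not.

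Ranked by mean FPKM, which is a level per transcript length, the members ran Sis (686), Slc5a1 (581), Treh (296), Lct (282), Mgam (261), Khk (229), Slc2a2 (112), Slc2a5 (105) and Slc2a1 (4.52). Several neighbours in this order could not be separated. Sis exceeded Slc5a1 in 4 of 6 libraries, Treh exceeded Lct in 2 of 6 and Mgam exceeded Khk in 3 of 6. Khk exceeded Slc2a2 in 6 of 6 libraries, by 1.42 to 4.41 times, and Slc2a5 exceeded Slc2a1 in 6 of 6, by 7.14 to 33.0 times. Slc2a2 was above Slc2a5 in 5 of 6 libraries, the exception being WT replicate 1.

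For every member except Slc2a1, the standard deviation within the groups on the log2 scale was larger than the size of the log2 fold change. For Slc2a1 these were 0.12 and 0.17. Replicate 2 was the lowest library of both groups for Sis, Mgam, Slc5a1, Slc2a2, Slc2a5 and Khk, 6 of 9 members, as it was for 19.7% of all genes tested. Within the Esrra-/- group, replicate 2 was lowest for 8 of 9 members against 39.1% of all genes, and replicate 3 was highest for 7 of 9 against 43.0%. Replicate 3 was the highest of both groups for Treh, Slc5a1, Slc2a2 and Khk, 4 of 9, and for 28.1% of all genes. As a median over the members, the deviation from the gene's mean on the log2 scale was 0.11, -0.32 and 0.35 in WT replicates 1, 2 and 3 and 0.04, -0.54 and 0.66 in the Esrra-/- replicates, whereas the median over all genes stayed between -0.02 and 0.04. The members are 9 genes of the same 6 mice and are not independent counts of this pattern.

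The same mice also differed in genes of the circadian clock. Per2, a repressor of the clock, had the pattern most like that of Slc2a2 of all genes tested, with a root mean square difference of 0.162 on the centred log2 scale over 6 libraries. Per2 read 4.36, 1.70 and 7.18 FPKM in WT and 6.05, 1.499 and 7.25 FPKM in Esrra-/-. Of 3 further clock genes, chosen after their values were seen, Dbp, a clock output factor, stood at 14.1, 5.64 and 131 FPKM in WT and at 20.2, 0.521 and 61.6 FPKM in Esrra-/-. Nr1d1, a clock repressor, stood at 58.5, 42.9 and 113 FPKM and at 66.4, 21.1 and 117 FPKM. Arntl, the activator whose level runs opposite to these in the daily cycle, was highest in replicate 2, at 10.9 FPKM in WT and 19.2 FPKM in Esrra-/-, and lowest in replicate 3, at 2.75 and 3.79 FPKM. The hour of collection is not given in the sources used here, and the part of the clock, of sex or of any other difference between these mice in the levels of the sugar genes was not tested.

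**Figure D3:**
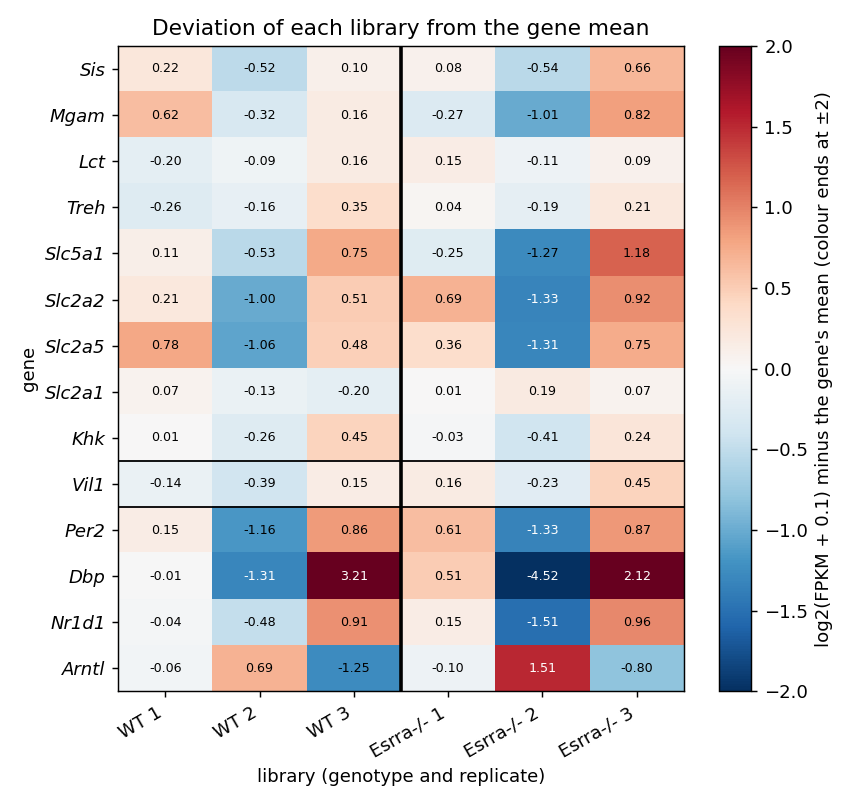
Deviation of log2(FPKM + 0.1) in each library (columns) from the gene's mean over the 6 libraries (colour and printed value; colours end at 2 and -2), for the 9 genes, for Vil1 and for 4 clock genes. Replicate 2 is negative for 8 of the 9 genes in Esrra-/- and for all 9 in WT, and Arntl is positive there.

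Split by Y-linked transcripts, the difference between the genotypes changed sign for 6 of 9 members. Among replicates 1 and 2, which had Y-linked transcripts, the log2 difference of Esrra-/- from WT was -0.79 for Mgam, -0.55 for Slc5a1, -0.33 for Slc2a5 and -0.08 for Sis. Between the replicates 3 it was 0.66, 0.43, 0.27 and 0.55 for the same genes. Lct and Treh went the other way, from 0.17 and 0.13 to -0.07 and -0.14. Slc2a2, Slc2a1 and Khk had the same sign in both, at 0.08 and 0.41, at 0.13 and 0.26 and at -0.09 and -0.21. Only 1 library of each genotype lacked Y-linked transcripts, so the difference between the splits was not tested.

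By likeness over the 6 libraries, the members lay near different genes. Nearest to Sis were Rhbdl2 (0.0401), Slc16a5 (0.0565) and Vegfa (0.0859), the value in brackets being the root mean square difference. For Mgam they were Aldh4a1 (0.199), Smpdl3b (0.203) and Papss2 (0.213), and for Slc5a1 Slc7a15 (0.190), Smpdl3b (0.204) and Ank3 (0.207). After Per2, Slc2a2 was nearest to Lpar3 (0.202) and Kalrn (0.207), and Slc2a5 was nearest to Tha1 (0.266), Slc2a2 (0.281) and Slc2a7 (0.309). Khk lay nearest to Cisd3 (0.0399), Slc25a3 (0.0622) and Ogdh (0.0634). Of the other members, Lct lay nearest to Klc2, Cdc42se1 and Tmem30b, Treh to Vps25, Mrpl27 and Spata2L, and Slc2a1 to Atxn2l, Sema6b and Sap130. Small values are easier to reach for genes that vary little, and these likenesses are descriptions over 6 libraries that share their mice.

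Ratios within a library remove what raises or lowers both genes alike. Sis stood at 2.08, 2.40 and 2.65 times the level of Mgam in WT and at 3.52, 3.81 and 2.46 times in Esrra-/-, with means of 2.38 ± 0.285 and 3.26 ± 0.709 (SD, n = 3 each; exact permutation p = 0.2, 0.778 after adjustment over 14 ratios). Slc2a5 to Slc2a2, the fructose transporter against the exit transporter, averaged 1.08 ± 0.282 in WT and 0.845 ± 0.104 in Esrra-/- (exact permutation p = 0.3). Slc5a1 to Slc2a2 averaged 6.03 ± 1.16 and 4.76 ± 1.83 (exact permutation p = 0.5). Khk to Slc2a5 was 2.72 ± 1.45 and 2.75 ± 1.62, and Sis to Lct was 2.38 ± 0.703 and 2.48 ± 0.894 (exact permutation p = 1 for both).

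Each member was also set against Vil1, which encodes villin, an actin-bundling protein of the microvillus. The ratio of Khk was the only one whose groups did not overlap. That is 1 of 9 members, a share near the 10.4% of all genes tested whose ratios to Vil1 did not overlap. Khk stood at 0.283, 0.278 and 0.314 times the level of Vil1 in WT and at 0.225, 0.226 and 0.221 times in Esrra-/-. The means were 0.292 ± 0.0197 and 0.224 ± 0.00285 (SD, n = 3 each), a log2 difference of -0.38 with an exact permutation p of 0.1, the smallest that 3 against 3 allows, and of 0.778 after adjustment over the 14 ratios. Vil1 itself read 798, 673 and 975 FPKM in WT and 980, 749 and 1204 FPKM in Esrra-/-, a log2 fold change of 0.25 (limma, adjusted p = 0.746). With every library scaled to its Vil1, limma gave Khk an unadjusted p of 0.0429 and an adjusted p of 0.608, and its log2 difference of -0.38 remained inside the limit of 0.58. That scaling moved the median log2 fold change of all genes from 0.03 to -0.22 and the calls from 348 lower and 143 higher to 653 lower and 50 higher. The log2 fold change of Khk moved with it, from -0.13 to -0.38.

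**Figure D4:**
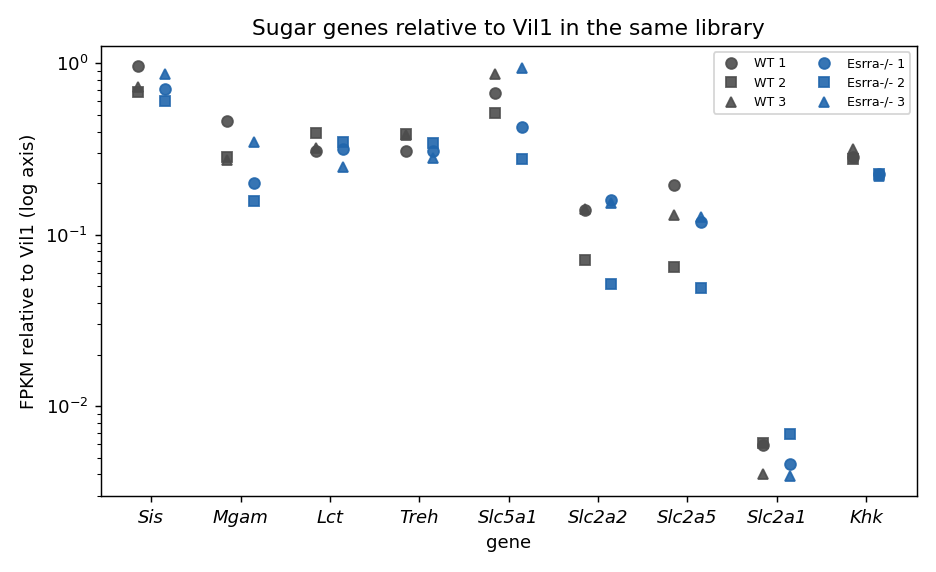
FPKM of each gene divided by the FPKM of Vil1 in the same library (log y axis), with WT in grey, Esrra-/- in blue and marker shapes for the replicate number. Khk is the 1 gene whose 3 Esrra-/- points all lie below its 3 WT points, where the groups of 10.4% of all genes tested did not overlap. The replicate 2 squares of Sis, Slc5a1, Slc2a2 and Slc2a5 remain lowest in both genotypes.

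The genes downstream of Khk were likewise not called. Of 17 listed symbols of fructose metabolism and its transcriptional response, 16 were found and tested, 0 were called lower and 0 higher, and their median log2 fold change was 0.03, the same as over all genes. Dak, the symbol in the table for the triose kinase that completes the pathway, read 264, 111 and 254 FPKM in WT and 221, 199 and 261 FPKM in Esrra-/- (log2 fold change 0.21), with WT replicate 2 far below the other 5 libraries.

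Glyctk and Akr1b3 passed an unadjusted p of 0.05 without reaching the limit on the fold, 2 of the 16 genes where 10.8% of all genes tested passed, a share near that background. Glyctk, which encodes glycerate kinase on a side branch of fructose breakdown, read 9.40, 7.81 and 9.77 FPKM in WT and 13.1, 11.1 and 13.1 FPKM in Esrra-/- (log2 fold change 0.47; limma, adjusted p = 0.342). Akr1b3, the aldose reductase that can form fructose from glucose through sorbitol, read 12.6, 13.0 and 13.3 FPKM in WT and 8.11, 10.2 and 10.1 FPKM in Esrra-/- (log2 fold change -0.46; limma, adjusted p = 0.326). For either gene the lowest library of the higher genotype lay above the highest of the other, as for 17.6% of all genes tested, and neither held after adjustment over all genes.

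A further 12 did not pass an unadjusted p of 0.05. Sord, the next enzyme of the sorbitol route, averaged 57.9 ± 25.9 FPKM in WT mice and 62.3 ± 34.0 FPKM in Esrra-/- mice (SD, n = 3 each). Of the sugar-sensing factors and their known targets, log2 fold changes were 0.05 for Mlxipl, which encodes ChREBP, 0.14 for its partner Mlx, 0.16 for Pklr, -0.21 for Txnip and -0.19 for Arrdc4. Those of the glycolytic genes Aldoa and Ldha were 0.04 and 0.10. Among genes of glucose output, they were 0.02 for Fbp1, -0.04 for G6pc, -0.14 for G6pc3 and -0.10 for Slc37a4.

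Neighbours of the members in the transporter families were not called either. Of 9 other SLC2 genes, 3 were tested and 0 called. The more abundant were Slc2a7, at 36.6, 19.7 and 45.2 FPKM in WT and 30.5, 12.4 and 51.8 FPKM in Esrra-/-, which followed the order of Slc5a1 and Khk among the replicates, and Slc2a9, a urate carrier, at 10.5 ± 1.90 and 15.1 ± 4.76 FPKM (SD, n = 3 each; log2 fold change 0.49; limma, adjusted p = 0.536). Of 10 other SLC5 genes, 7 were tested and 0 called, the most abundant being Slc5a11, at 72.2 ± 24.7 and 75.5 ± 32.4 FPKM, and Slc5a12, at 54.0 ± 10.0 and 53.7 ± 11.0 FPKM (SD, n = 3 each). Slc5a9, named after its values were seen, was the 1 of the 7 past an unadjusted p of 0.05, a threshold passed by 10.8% of all genes tested, at 11.0, 11.5 and 11.6 FPKM in WT and 15.8, 13.8 and 14.0 FPKM in Esrra-/- (log2 fold change 0.35; limma, adjusted p = 0.373). The kidney glucose transporter gene Slc5a2 was listed at 0 in all 6 libraries.

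The sodium pump keeps the gradient that SGLT1 uses, and 8 of 9 listed genes of the pump and of apical sodium exchange were tested with 0 called, 4 negative and 4 positive, with a median log2 fold change of 0.08. Slc9a3r1, which encodes a scaffold protein of the apical sodium exchanger, read 561, 480 and 985 FPKM in WT and 722, 487 and 1133 FPKM in Esrra-/- (log2 fold change 0.20; limma, adjusted p = 0.878). Atp1b1, which encodes a beta subunit of the pump, read 781, 552 and 1044 FPKM in WT and 546, 345 and 1022 FPKM in Esrra-/- (log2 fold change -0.41; limma, adjusted p = 0.755). Both were lowest in replicate 2 and highest in replicate 3 of each genotype, the order of Slc5a1.

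Other enzymes and the scaffold of the same membrane had mostly positive log2 fold changes in Esrra-/- over WT, none of them called. Of the 14 brush-border peptidases and phosphatases tested, 0 were called and 11 of 14 had positive log2 fold changes, with a median of 0.26 beside 0.03 over all genes. Anpep, the leading peptidase, averaged 2524 ± 8.07 FPKM in WT and 3382 ± 1289 FPKM in Esrra-/-, and Alpi, intestinal alkaline phosphatase, 989 ± 321 and 1221 ± 429 FPKM (SD, n = 3 each). All 12 microvillus genes tested had positive values, with a median of 0.27 and 0 called. These genes share the 6 libraries, so their common sign is not 12 separate observations, and with the libraries scaled to Vil1 the median log2 fold change of all genes moved from 0.03 to -0.22.

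Of the markers of the cell types of the epithelium, calls were made in the Paneth and crypt lists. All 10 villus enterocyte markers had positive log2 fold changes and 0 were called, with summed levels of 50274 to 81595 FPKM in WT and 61313 to 84176 FPKM in Esrra-/-. All 8 crypt and stem cell markers were negative and 1 of 8, Smoc2, was called lower (limma, adjusted p = 0.247), with sums of 210 to 334 FPKM in WT and 104 to 250 FPKM in Esrra-/-. All 6 Paneth cell markers were negative and 4 of 6 were called lower (Lyz1, Defa17, Defa24 and Ang4), against 3.28% of all genes tested, with sums of 9802 to 19874 FPKM in WT and 1917 to 8409 FPKM in Esrra-/-. None of these calls held after adjustment over all genes, the adjusted p (limma) of the 4 Paneth markers running from 0.359 to 0.457. Of the goblet, enteroendocrine and tuft cell markers, 0 of 7, 0 of 6 and 0 of 2 tested were called. Replicate 2, the library in which 6 of the sugar genes were lowest in both genotypes, had the highest sums of crypt and of Paneth cell markers in both. The part of these cells in the levels of the sugar genes was not tested.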

How the data were processed

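The duodenal epithelium of WT and Esrra-/- mice had been sequenced (RNA-seq) as 3 libraries of each genotype. The authors checked reads with fastQC (version 0.11.3), quantified them with Kallisto against mm9 and calculated the deposited FPKM values with DESeq2. The annotation and strand setting are not given in the sources used here. A second deposited table holds the authors' own comparison (mean normalized count, log2 fold change, its standard error, test statistic, p and adjusted p) and was not used.

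FPKM values were taken to log2(FPKM + 0.1), and the 10596 of 22611 genes with a mean above 1 FPKM were fitted with limma 3.58.1 in R 4.3.3 (lmFit, then eBayes allowing a mean-variance trend), without covariates, and p-values were adjusted over all genes tested (Benjamini-Hochberg). A call needed p under 0.05 before adjustment together with a log2 fold change beyond 0.58, thresholds taken from the study's methods. Fold changes on this scale understate those of low genes. No test on counts was run, because the values are FPKM. The exact two-sided permutation test (SciPy 1.17.1) compared mean log2 values of 3 against 3 libraries, and ratios were adjusted over the 14 ratios. The script was tested on simulated data.

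Promoters came from a RefSeq table on GRCm38.p6, in which all 9 members matched by symbol, and were placed in mm9 by exact match. Gene coordinates are those of GENCODE M1 in the same build. The promoters of Slc2a5 and Slc2a1 were searched but not printed, because they run into an annotated exon.

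Where 2 libraries both had low values of a gene, their most common ratio gave the scaling of the other libraries relative to WT replicate 1, which ran from 0.828 to 1.03. This is the factor used in making the FPKM and not the read depth, so no counting interval is given. Replicate numbers come from the labels. The deviations of same-numbered libraries had correlations over genes of 0.01, 0.26 and 0.38 for numbers 1, 2 and 3, so not every pair deviated together, and nothing states that a number marks a shared litter or day, so the main fit has no block.

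The members, gene lists and marker lists were chosen with earlier results of these data known. All members, the genes of fructose metabolism above 1 FPKM, the 2 most abundant and any called gene of every other list, and the 3 genes most alike to each member were named by rule. Slc5a9, Dbp, Nr1d1 and Arntl, and some markers, were named after their values were seen. A few genes of the lists are counted but not reported here by name. Alternatives were other pseudocounts, filters, scalings and thresholds, no trend, a replicate block, Y-linked transcripts as a covariate and each library left out.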

Additional observations from a re-analysis of the deposited data

How the results depend on the processing

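Under every alternative tried, 0 of the 9 members were called lower and 0 higher. Over all genes, calls went from 348 lower and 143 higher to 528 and 277 with no filter on low values, to 653 and 50 with libraries scaled to Vil1, to 2 and 2 at an adjusted p under 0.05 with no fold limit, and to 688 and 456 at an unadjusted p under 0.05 with no fold limit. Leaving out 1 library gave 252 to 537 lower genes, the highest without Esrra-/- replicate 2, and 146 to 214 higher genes, the highest without WT replicate 3. Scaling to Vil1 turned the log2 fold changes of Sis to -0.12, Lct to -0.16, Treh to -0.21, Slc2a2 to -0.062 and Slc2a1 to -0.072. With 1 library left out, they ran from -0.17 to 0.43 for Sis, from -0.80 to 0.12 for Mgam, from 0.01 to 0.19 for Lct, from -0.078 to 0.23 for Treh, from -0.87 to 0.36 for Slc5a1, from -0.26 to 0.90 for Slc2a2, from -0.70 to 0.49 for Slc2a5, from 0.12 to 0.25 for Slc2a1 and from -0.29 to 0.063 for Khk. The sign of 7 of the 9 thus depended on single libraries, with Lct and Slc2a1 the exceptions. With the replicate number as a block, 441 genes were called lower and 192 higher, 0 passed an adjusted p of 0.05 (4 without the block, 52 with the Y-linked covariate, 32 after quantile normalization and 26 scaled to Vil1), and no member was called, the smallest unadjusted p being 0.201 for Khk. Not every library correlated best with its own number, since WT replicate 1 was closest to Esrra-/- replicate 2 (0.18).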

Other observations

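Of 17 transcription factors known to act on sugar-handling genes, 0 were called and 0 passed an unadjusted p of 0.05 with limma, and their log2 fold changes were negative for 4 and positive for 13, with a median of 0.09 beside 0.03 over all genes. For 1 of the 17, Cdx1, all Esrra-/- libraries lay below all WT libraries (log2 fold change -0.25; limma, adjusted p = 0.545), where the groups of 17.6% of all genes tested did not overlap. Hnf4a, the most abundant, averaged 180 ± 13.8 FPKM in WT mice and 180 ± 5.90 FPKM in Esrra-/- mice (SD, n = 3 each), and Hnf4g averaged 133 ± 41.8 and 168 ± 37.5 FPKM (log2 fold change 0.36; limma, adjusted p = 0.658). Genes of sweet taste sensing were near the floor of the table. Of 5, only Trpm5, the taste channel shared with tuft cells, was above 1 FPKM, at 3.24 ± 0.908 FPKM in WT mice and 2.90 ± 1.06 FPKM in Esrra-/- mice (SD, n = 3 each), and the sweet receptor genes Tas1r2 and Tas1r3 averaged 0.0509 and 0.333 FPKM in WT.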
